A study of Sus scrofa domesticus with 16 samples.

Results

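Selenoproteins are proteins that carry selenocysteine, a selenium-containing amino acid, usually in the active site of a redox enzyme. The cell inserts it at a UGA codon, which otherwise ends translation, with a dedicated machinery that needs selenium and a structure in the messenger RNA. The adrenal cortex makes steroids with mitochondrial cytochrome P450 enzymes, which release reactive oxygen, and the gland is known as a tissue rich in selenium. The 10 genes described here are the glutathione peroxidases GPX1, GPX3 and GPX4, the selenium carrier SELENOP, the selenophosphate synthetase SEPHS2, the thioredoxin reductase TXNRD1, the methionine sulfoxide reductase MSRB1, and the small selenoproteins SELENOW, SELENOH and SELENOM.

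The genes were picked by their symbol in the platform annotation, which names 16 probe sets for these 10 genes, of 6765 genes with a symbol of their own and 23999 probe sets besides controls. They were selected on measured values as well: the set was proposed because GPX1 had one of the clearest differences between the stress groups (rank 3 of 14399 probe sets by p). The differences between the stress groups are therefore given as descriptions, with no test of the members. Of the 16 probe sets, 15 passed the filter on low signal (mean log2 signal of at least 6.15, a signal of 71.1), and the dimmer of 2 SELENOH probe sets did not. For a gene with several probe sets the brightest stands for the gene, and the others are described separately.

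The tissue was the adrenal gland of domestic pigs (Sus scrofa domesticus). Pigs unfamiliar to each other had been mixed in groups, and 8 animals labelled low stress, from mixing with low aggressiveness, stood against 8 labelled high stress, from mixing with high aggressiveness. The submitters chose both groups for their difference in fighting and in plasma cortisol. Mixing was common to both groups, no unmixed animals were analysed here, and breed, age and sex are not given in the sources used here. Each animal had 1 Affymetrix porcine array, and signals are printed on the log2 scale, where a difference of 1 is a doubling.

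The glands had the signals that define the tissue. The cortical genes STAR (mean log2 signal 14.85) and CYP11A1 (14.41) and the chromaffin genes PNMT (13.60) and CHGB (14.31) were all bright. Some other markers were dimmer, such as cortical MC2R (8.47) and NR5A1 (9.99) and chromaffin CHGA (10.13). The chromaffin marker NPY (4.39) lay below the filter. Of the liver and kidney markers, APOA1 was well above the filter (11.04), and ALB (5.36) and TTR (4.12) had means below it, although ALB reached 9.36 in 1 low stress array and 8.13 in 1 high stress array. The arrays form 2 sets of 8 that no label names, seen in the dap labelling control, a bacterial transcript. Its mean signal was 457 in one (low-spike) and 3587 in the other (high-spike), each with 4 animals of either stress group. The log2 ratio of 3' to 5' actin signal averaged 3.77 in the low-spike and 2.76 in the high-spike set. The same ratio for GAPDH went the other way, at 0.47 in the low-spike and 0.60 in the high-spike set. Array medians ran from 116 to 147 in signal. In bulk gland RNA, fewer cells of a type and less RNA per cell cannot be told apart.

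The glutathione peroxidases reduce peroxides at the expense of glutathione. GPX1, the abundant cytosolic enzyme that removes hydrogen peroxide, was the member with the widest gap between the stress groups. Its log2 signal ran from 12.14 through a median of 12.65 to 12.96 in low stress, and from 13.01 through 13.14 to 13.43 in high stress. The groups did not overlap: each of the 8 high stress animals lay above every low stress animal, though the closest pair differed by little. The mean was 12.62 ± 0.31 in low stress and 13.16 ± 0.13 in high stress (SD, n = 8 each), a 1.46-fold difference (95% interval 1.22 to 1.75; log2 difference 0.55, SE 0.12).

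The low stress group was the more scattered one for GPX1. Low stress replicates 6 and 1 were lowest, at 12.14 and 12.25, and replicates 5 and 8 were highest, at 12.96 and 12.95. Since the groups did not overlap over all arrays, neither array set alone can show overlap, and the values by set are given as description. In the low-spike set low stress animals reached at most 12.96 and high stress animals started at 13.12, with a difference of means of 0.48. In the high-spike set the corresponding values were 12.95 and 13.01, and the difference was 0.62. With the set as a block the 95% interval of the log2 difference was 0.32 to 0.77.

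No member passed limma at an adjusted p under 0.05, and neither did any other probe set (0 of 14399, 0%). At an unadjusted p under 0.05 there were 460 of 14399 probe sets, 183 higher and 277 lower in high stress. Quantile normalization changed that split to 240 and 183, and median centring to 318 and 126. When the array set was blocked, 1 of 14399 (0.00694%) passed, and it was no member. A complete separation with all high stress arrays on top was found in 3 of 14399 probe sets (0.0208%), of which GPX1 was 1. These counts come from the contrast that proposed the genes and are given as background only.

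**Figure D1:**
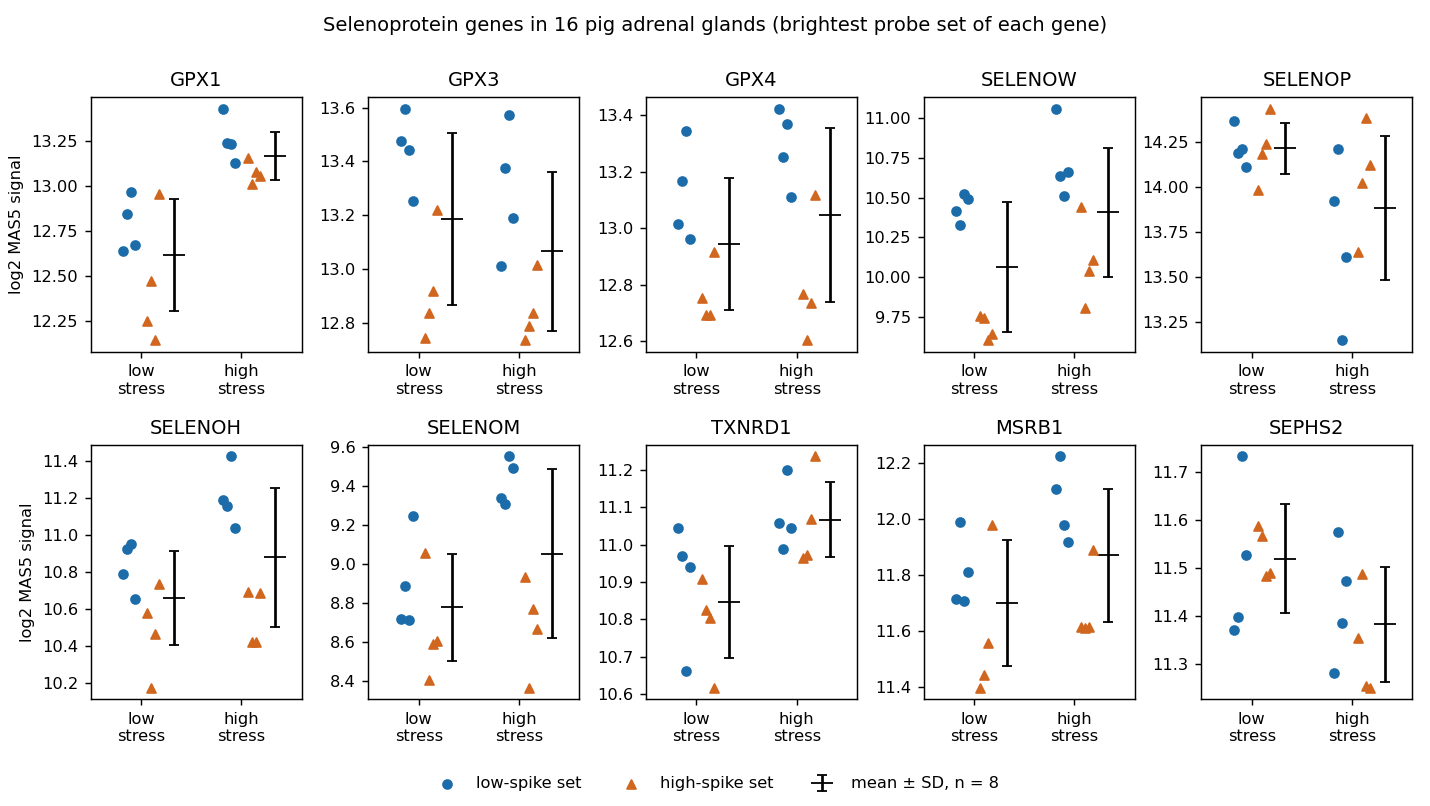
Log2 signal of each of the 10 genes in the 16 glands, by stress group, with circles for the low-spike and triangles for the high-spike array set and bars for the mean ± SD of 8 animals. GPX1 shows no overlap between the groups, with low stress up to 12.96 and high stress from 13.01, whereas the other genes overlap, and SELENOW lies lower in the high-spike arrays of both groups.

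GPX3, the secreted peroxidase of plasma, lay at similar signals in both groups. Its log2 signal ran from 12.74 through 13.24 to 13.60 in low stress and from 12.73 through 13.01 to 13.57 in high stress. The ranges were nearly the same, and the log2 difference was -0.12 (95% interval -0.44 to 0.20). Such an interval does not show equal levels; it bounds the fold between 0.737 and 1.15.

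GPX4 reduces phospholipid hydroperoxides within membranes and so restrains ferroptosis, an iron-dependent form of cell death. Its bright probe set ran from 12.69 through 12.94 to 13.35 in low stress and from 12.60 through 13.11 to 13.42 in high stress, with a log2 difference of 0.10 (95% interval -0.19 to 0.40). The high stress range enclosed the low stress range at both ends. A dim second probe set of GPX4, with a mean log2 signal of 6.30 close to the filter, had 6.47 ± 0.31 in low stress and 6.13 ± 0.20 in high stress (SD, n = 8 each). Its difference, -0.34 (95% interval -0.62 to -0.06), had the opposite sign, so the direction for GPX4 depends on the probe set.

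SELENOP is the secreted protein that carries selenium between tissues in many selenocysteine residues. Of the 10 brightest probe sets it had the most negative difference, high minus low stress, and the spread lay in the high stress group. Low stress animals ran from 13.98 through 14.20 to 14.43, and high stress animals from 13.15 through 13.97 to 14.38. High stress replicates 6, 8, 2 and 1, at 13.15, 13.61, 13.64 and 13.92, lay below every low stress animal. The other 4 lay within the low stress range. The SD was 0.14 in low stress and 0.40 in high stress, and the log2 difference was -0.33 (95% interval -0.65 to -0.02), or 0.794-fold. Without high stress replicate 6 it was -0.23, and the difference was -0.50 within the low-spike arrays and -0.17 within the high-spike arrays.

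SEPHS2 makes selenophosphate, the selenium donor for selenocysteine, and is itself a selenoprotein. Its brightest probe set ran from 11.37 through 11.51 to 11.73 in low stress and from 11.25 through 11.37 to 11.57 in high stress. In high stress 7 of 8 animals lay below the low stress mean and 4 below the whole low stress range, with a log2 difference of -0.14 (95% interval -0.31 to 0.04). The SDs were small, 0.11 in low stress and 0.12 in high stress. Its second probe set, at a mean log2 signal of 9.03, had a difference of -0.15 (95% interval -0.79 to 0.49), and the dimmest, near the filter, had 0.07 (-0.33 to 0.46).

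TXNRD1 is the cytosolic thioredoxin reductase, which keeps thioredoxin reduced with NADPH. Its brightest probe set ran from 10.62 through 10.87 to 11.05 in low stress and from 10.97 through 11.05 to 11.24 in high stress. Of the 8 high stress animals, all exceeded the mean of the low stress group and 5 exceeded every low stress animal. The mean was 10.85 ± 0.15 in low stress and 11.07 ± 0.10 in high stress (SD, n = 8 each), a 1.17-fold difference (95% interval 1.03 to 1.32). Of the other 2 probe sets of TXNRD1, one had a log2 difference of 0.07 (95% interval -0.17 to 0.30) and the other -0.06 (-0.32 to 0.20). The mean over the 3 probe sets was 0.08, against 0.22 for the brightest alone.

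MSRB1 repairs oxidized methionine by reducing the R form of methionine sulfoxide. It ran from 11.40 through 11.71 to 11.99 in low stress and from 11.61 through 11.90 to 12.22 in high stress. The groups overlapped over most of their range, with 2 high stress animals above every low stress animal, and the log2 difference was 0.17 (95% interval -0.09 to 0.43).

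SELENOW, a small cytosolic selenoprotein with a thioredoxin-like fold that is sensitive to selenium supply, had the widest split by array set of the 10 brightest probe sets. Low stress animals ran from 9.61 through 10.04 to 10.52 and high stress animals from 9.81 through 10.47 to 11.06. Over all arrays the groups overlapped, with a log2 difference of 0.34 (95% interval -0.06 to 0.75). Within the high-spike set the 4 low stress animals lay at 9.61 to 9.76 and the 4 high stress animals at 9.81 to 10.44, with no overlap. How many of all probe sets separate with so few animals was not counted. Within the low-spike set they overlapped slightly, at 10.33 to 10.52 and 10.51 to 11.06. The differences of means were 0.41 and 0.27 in these sets, and the interval with the set as a block was 0.13 to 0.55.

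SELENOH, a nucleolar selenoprotein, and SELENOM, a thioredoxin-like protein of the endoplasmic reticulum, behaved alike across the array sets. SELENOH ran from 10.18 through 10.70 to 10.95 in low stress and from 10.42 through 10.86 to 11.43 in high stress, a log2 difference of 0.22 (95% interval -0.11 to 0.55). SELENOM ran from 8.41 through 8.71 to 9.25 and from 8.37 through 9.12 to 9.55, a difference of 0.28 (95% interval -0.09 to 0.64). Over all arrays both genes overlapped between the stress groups.

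In the low-spike set alone, however, both separated. SELENOH was at 10.66 to 10.95 in low stress and 11.04 to 11.43 in high stress there, and SELENOM at 8.71 to 9.25 and 9.31 to 9.55. The differences of means were 0.37 and 0.53 in the low-spike set but 0.07 and 0.02 in the high-spike set. The brightest TXNRD1 probe set also separated, in the high-spike set. So did the dim GPX4 probe set in the low-spike set, where high stress was lower (difference of means -0.40). The share of all probe sets that separate within a set of 4 and 4 animals was not counted, so these separations are descriptions only. The interaction of stress group and set was tested with limma over all probe sets, and none of 14399 passed (0%; 421 had an unadjusted p under 0.05). No member passed. SELENOM was the only one of the 15 tested member probe sets with an unadjusted p under 0.05 (log2 interaction -0.51, SE 0.23), so a difference between the sets is not shown. The dim second probe set of SELENOH, at a mean log2 signal of 5.87, had a difference of 0.24 (95% interval -0.56 to 1.05).

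**Figure D2:**
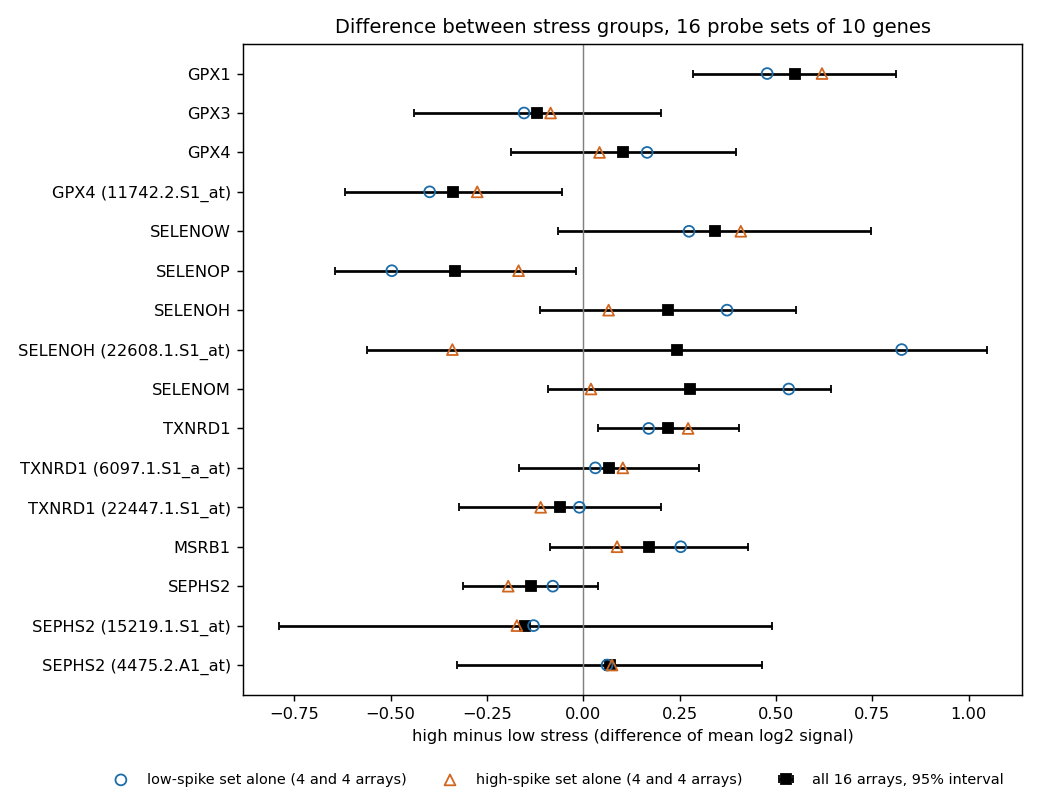
Difference of mean log2 signal, high minus low stress, for the 16 probe sets, with squares and bars for all 16 arrays and their 95% interval, and open circles and triangles for the low-spike and high-spike set alone. GPX1 lies at 0.55 with both sets between 0.48 and 0.62, SELENOM and SELENOH lie apart in the 2 sets, and the second probe set of GPX4 points the other way from the first.

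By gene, 7 of the 10 had a higher mean in high stress (GPX1, GPX4, SELENOW, SELENOH, SELENOM, TXNRD1 and MSRB1) and 3 a lower one (GPX3, SELENOP and SEPHS2). The median log2 difference of these 10 brightest probe sets was 0.19. Over all 15 member probe sets tested it was 0.07, with 9 higher and 6 lower. For all probe sets tested the median was -0.03, and 41.6% were higher. The median of all probe sets moved with the scaling, to -0.001 after quantile normalization and 0.04 after median centring. Markers of other cells the gland holds, listed in the design, did not pass limma in the stress contrast either (0 called in each list). The summed signal of the 3 red blood cell markers tested, of 4 on the array, was 562 to 1109 in low stress and 499 to 988 in high stress. For the 6 macrophage markers it was 4312 to 8427 and 3034 to 6385. For the 9 cortical markers it was 103408 to 153010 and 113376 to 159114, and for the 5 chromaffin markers 30422 to 56715 and 34121 to 60181. The 3 smooth muscle markers were all higher in mean in high stress, with a median log2 difference of 0.33 and summed signals of 2622 to 15351 in low stress and 5430 to 14629 in high stress. Among them TAGLN, an actin-binding protein, had a log2 difference of 0.50 (95% interval 0.08 to 0.92), near that of GPX1 in size, and did not pass limma after adjustment. The sum of the 4 endothelial markers was 4819 to 6184 and 4904 to 5485, and APOA1, the liver and kidney marker past the filter, was at 1377 to 2790 and 1549 to 2946. All these ranges overlapped, and no listed marker was at 0. With a chromaffin marker covariate the GPX1 difference was 0.53. That covariate differed little between the groups (mean log2 signal 12.50 in low and 12.55 in high stress), so it could change little. No smooth muscle covariate was fitted, and the part of cell make-up in the members' values was not tested.

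A question left free by the choice of genes is how they differed between the array sets. Most did: in limma with the stress group in the model, 6 of the 10 genes were lower in the high-spike set (adjusted p under 0.05) and none was higher by its brightest probe set. Over all probe sets 40.1% passed in either direction and 16.3% passed as lower. Of the 15 member probe sets tested, 7 passed, 6 of them lower.

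Among the brightest probe sets SELENOW had the widest difference, at 10.58 ± 0.22 in the low-spike and 9.89 ± 0.28 in the high-spike set (SD, n = 8 each), or 1.61-fold lower in the high-spike set (limma adjusted p = 9.79e-05). SELENOH was 1.41-fold lower there (adjusted p = 0.00129), SELENOM 1.40-fold (adjusted p = 0.00739), GPX3 1.39-fold (adjusted p = 0.00113), GPX4 1.34-fold (adjusted p = 0.00181) and MSRB1 1.23-fold (adjusted p = 0.0230). The 3' to 5' ratios given above moved with the sets too, with actin lower and GAPDH higher in the high-spike set. So did some cell markers. All 3 smooth muscle markers were lower in the high-spike set, with a summed signal of 5923 to 15351 against 2622 to 8676. Of 9 cortical markers 3 were lower and 1 higher, and of 6 macrophage markers 1 was lower and 1 higher. Of 5 chromaffin markers 1 was lower, as was APOA1, and of 3 red blood cell markers 1 was higher. None of the 4 endothelial markers passed. Over all probe sets 16.3% passed as lower and 40.1% in either direction. The part of the 3' to 5' ratios and of cell markers in the members' differences was not tested. The 4 genes that did not pass were GPX1 (log2 difference -0.25, SE 0.11), TXNRD1 (-0.06, SE 0.08), SEPHS2 (-0.03, SE 0.08) and SELENOP (0.15, SE 0.14).

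The calls between sets moved with the scaling of the arrays. After quantile normalization 5 genes passed, since MSRB1 no longer did (adjusted p = 0.0743), and GPX1 was at -0.07. After median centring 7 passed, GPX1 among them at -0.39 (adjusted p = 0.0121). SELENOW, SELENOH, SELENOM, GPX3 and GPX4 passed as lower under each of these scalings.

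**Figure D3:**
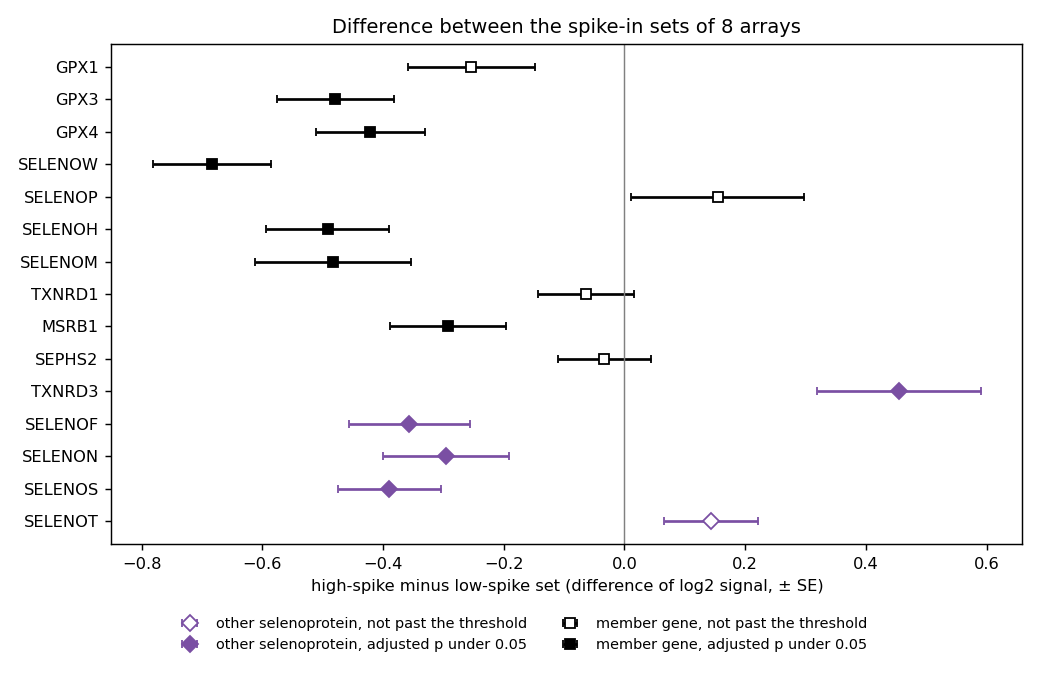
Difference of log2 signal between the array sets, high-spike minus low-spike, with its SE, for the 10 genes (squares) and the 5 other selenoprotein genes past the filter (diamonds); filled symbols passed limma at an adjusted p under 0.05. The 6 filled squares all lie below 0, with SELENOW at -0.68 the farthest, and TXNRD3 at 0.45 is the filled symbol above 0.

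Of 15 further selenoprotein genes listed, 11 were on the array with a symbol of their own and 5 were past the filter: SELENOF and SELENOS, which work in the endoplasmic reticulum, SELENON and SELENOT of the same compartment, and TXNRD3, a further thioredoxin reductase. None of the 5 passed limma between the stress groups, with 4 higher and 1 lower and a median log2 difference of 0.05. SELENOS had 0.09 (SE 0.13), SELENOF 0.05 (SE 0.13), SELENON 0.05 (SE 0.13), SELENOT 0.01 (SE 0.09) and TXNRD3 -0.01 (SE 0.18).

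Between the array sets 4 of these 5 passed limma, where 40.1% of all probe sets did. SELENOS (-0.39, adjusted p = 0.00211), SELENOF (-0.36, adjusted p = 0.0100) and SELENON (-0.30, adjusted p = 0.0336) were lower in the high-spike set and TXNRD3 (0.45, adjusted p = 0.0141) was higher. GPX2, GPX6, the thyroid hormone deiodinases DIO1, DIO2 and DIO3, and SELENOI lay below the filter, at mean log2 signals of 2.67 to 5.66.

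Genes that feed selenoprotein synthesis were sparsely measured. Of 14 listed, 7 were on the array and 5 past the filter, and none passed limma between the stress groups or the array sets. SELENBP1, a selenium-binding protein that is no selenoprotein, had 12.37 ± 0.26 in low stress and 12.08 ± 0.30 in high stress (SD, n = 8 each), a log2 difference of -0.29 (SE 0.14). SARS, the seryl-tRNA synthetase that charges the selenocysteine transfer RNA with serine, had 0.15 (SE 0.11), and SCLY, the lyase that recovers selenium from selenocysteine, had 0.23 (SE 0.20). LRP8, a receptor for SELENOP, had -0.06 (SE 0.14), and CTH, of the transsulfuration pathway, -0.12 (SE 0.17). The probe sets of LRP2 and of RPL30 lay below the filter.

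Among partners of the glutathione and thioredoxin systems, 21 of 28 listed genes were measured and all 21 passed the filter. None passed limma between the stress groups, with 11 higher and 10 lower and a median log2 difference of 0.05. The 3 with the smallest p were GLRX3, a glutaredoxin of iron-sulfur handling, at 0.25 (SE 0.13), GLRX2, the mitochondrial glutaredoxin, at 0.18 (SE 0.11), and GSR, the glutathione reductase, at -0.12 (SE 0.08). The substrate of TXNRD1, thioredoxin (TXN), had 0.14 (SE 0.11), and the rate-limiting enzyme of glutathione synthesis, through its subunits GCLC and GCLM, had -0.01 (SE 0.16) and 0.24 (SE 0.17); these 3 lie outside the rule for named genes and were picked by their role. Between the array sets 7 of the 21 passed as lower in the high-spike set and none as higher. Over all probe sets 16.3% passed as lower and 40.1% in either direction. The total called among these genes was thus not above its background, whereas the share called lower was above its own. That excess was not tested.

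Probe sets of one gene did not always follow each other, and why was not tested. For SEPHS2 the 2 brightest probe sets rose and fell together within the sets (r = 0.81 and 0.77, n = 8 each, as a description), but only 1 of them differed between sets. The less bright of this pair was at 8.52 ± 0.44 in the low-spike and 9.54 ± 0.32 in the high-spike set (SD, n = 8 each), 2.03-fold higher (limma adjusted p = 0.000471). It was the only member probe set called higher in the high-spike set. The brightest had a log2 difference of -0.03 (95% interval -0.20 to 0.13).

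For TXNRD1, the brightest probe set and the one that shares its identifier stem correlated at 0.68 in the low-spike and 0.41 in the high-spike set, and the third correlated with the brightest at 0.16 and 0.04. For GPX4 the pair correlated at -0.65 and 0.45. High stress replicate 3 shows the split in TXNRD1 best: its 2 dimmer probe sets stood at 9.38, the highest of all arrays, and at 8.12, the lowest of all arrays. Which probe set best reports the gene was not tested.

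**Figure D4:**
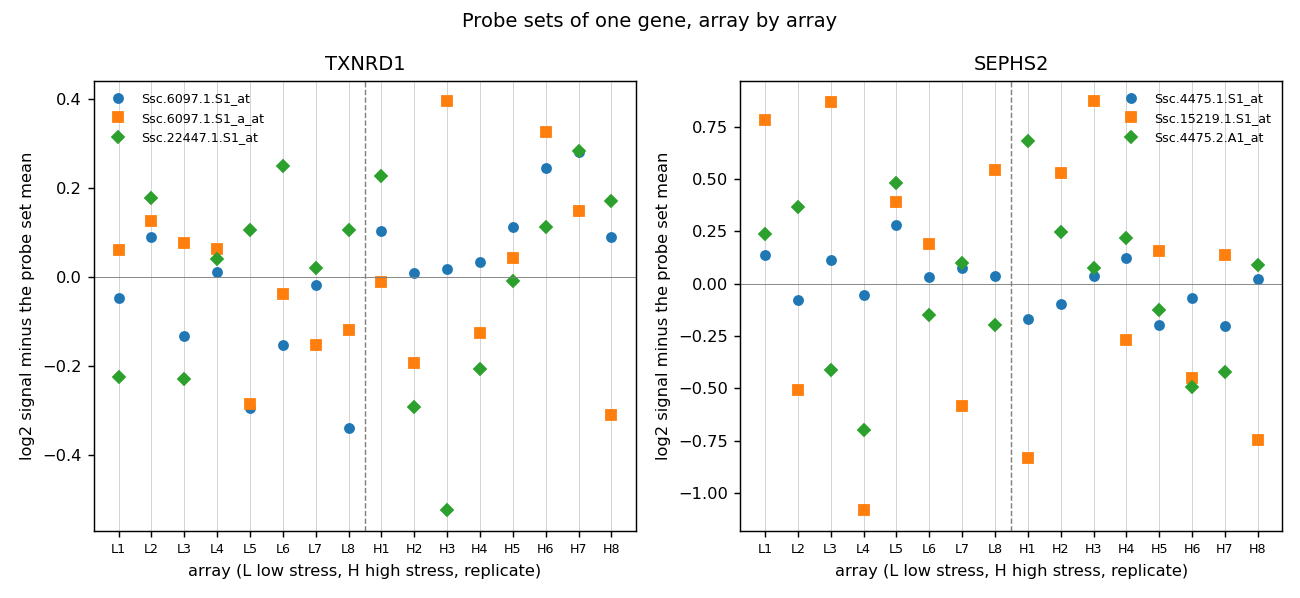
Log2 signal minus the probe set's own mean over 16 arrays, for the 3 probe sets of TXNRD1 (left) and of SEPHS2 (right), with low stress arrays left of the dashed line and high stress arrays right of it. The brightest TXNRD1 probe set (circles) lies above its mean in all 8 high stress arrays while the other 2 scatter on both sides, and the SEPHS2 probe set drawn as squares moves over a far wider range than the brightest.

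Covariation among the 10 genes was examined within each set of 8 arrays, since the sets form separate clusters. All 45 pairs were tested in each set with exact two-sided permutation tests, adjusted by Benjamini-Hochberg over the 45. No pair passed in either set (smallest adjusted p = 0.114 in the low-spike and 0.383 in the high-spike set by exact permutation of Pearson's r). At an unadjusted exact permutation p under 0.05 there were 9 pairs and 4 pairs. By Spearman's rho no pair passed either. The pairs had the same sign in both sets in 36 of 45, and 5 pairs had r above 0.5 in both. Each set held both stress groups, so differences between the groups enter r in both sets. Neither count was tested, and neither shows that a relation was repeated.

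GPX4 and SELENOH were one of these 5. They had r = 0.81 and rho = 0.86 in the low-spike set (n = 8, exact permutation p = 0.0137 and 0.0107, adjusted 0.132 and 0.140) and r = 0.65 and rho = 0.78 in the high-spike set (n = 8, exact permutation p = 0.0778 and 0.0301, adjusted 0.383 and 0.338). Without the 2 arrays farthest from the GPX4 median, r was 0.71 and 0.50. With the mean of each stress group removed it was 0.79 and 0.64, close to the values with them.

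GPX1 and SELENOW had r = 0.77 and rho = 0.81 in the low-spike set (n = 8, exact permutation p = 0.0122 and 0.0218, adjusted 0.132 and 0.140) and r = 0.67 and rho = 0.88 in the high-spike set (n = 8, exact permutation p = 0.0534 and 0.00724, adjusted 0.383 and 0.231). Without the 2 arrays farthest from the GPX1 median, r was 0.61 and 0.60. With the stress group means removed, r was 0.53 and 0.12, lower in both sets. The other 3 pairs with r above 0.5 in both sets were GPX1 with MSRB1, SELENOH with SELENOM, and SELENOH with MSRB1. With the stress group means removed, r for GPX1 with MSRB1 was 0.28 in the low-spike and 0.72 in the high-spike set. It was -0.30 and 0.53 for SELENOH with SELENOM, and 0.05 and 0.64 for SELENOH with MSRB1, so none of these 3 stayed above 0.5 in both sets.

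TXNRD1 and SEPHS2 were the only pair with r below -0.5 in both sets. They had r = -0.81 and rho = -0.74 in the low-spike set (n = 8, exact permutation p = 0.0207 and 0.0458, adjusted 0.133 and 0.236) and r = -0.71 and rho = -0.67 in the high-spike set (n = 8, exact permutation p = 0.0441 and 0.0831, adjusted 0.383 and 0.458). Without the 2 arrays farthest from the TXNRD1 median, r was -0.61 and -0.75. With the stress group means removed it was -0.82 and -0.25.

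Among the peroxidases, GPX1 and GPX4 had r = 0.82 in the low-spike set (n = 8, exact permutation p = 0.0178, adjusted 0.133) and 0.34 in the high-spike set (n = 8, exact permutation p = 0.449, adjusted 0.713). With the stress group means removed, r was 0.92 and 0.39. GPX3 with GPX1 had r = -0.41 in the low-spike and 0.15 in the high-spike set (n = 8 each, exact permutation adjusted p = 0.565 and 0.885). Its highest value in the high-spike set, 0.85 with MSRB1, fell to 0.11 without the 2 arrays farthest from the GPX3 median and so rests on those arrays. With the stress group means removed and all 8 arrays kept, r for GPX3 with MSRB1 was 0.98 in the high-spike and 0.10 in the low-spike set.

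**Figure D5:**
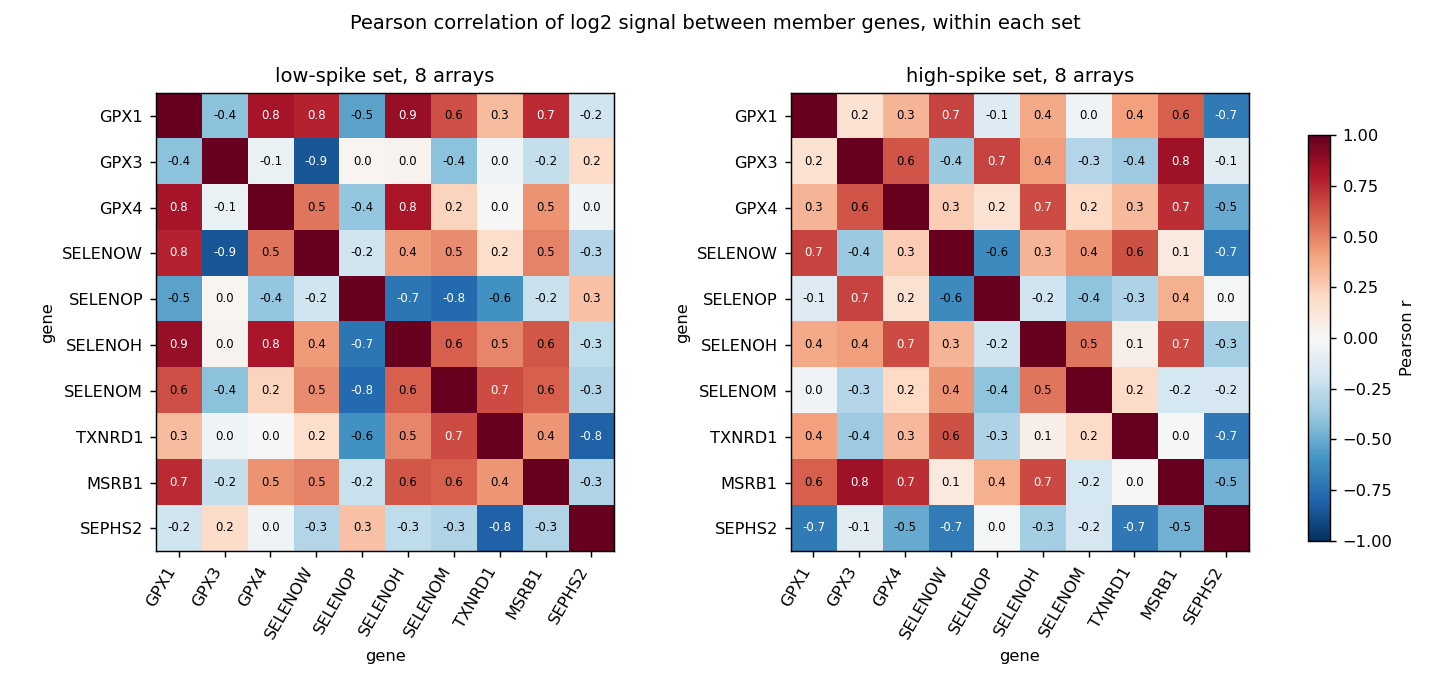
Pearson correlation of log2 signal between the 10 genes in the low-spike set (left) and the high-spike set (right), 8 arrays each, with red for positive and blue for negative values. GPX4 and SELENOH are positive in both panels (0.81 and 0.65), TXNRD1 and SEPHS2 are negative in both (-0.81 and -0.71), and no pair passed after adjustment over the 45 pairs.

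The genes most alike to each member were sought among 5445 other genes, by the mean of Fisher's z of Pearson's r in the 2 sets of 8 arrays. These are descriptions with no test, since the highest of many values is picked. For GPX1 they were ATP5G1, a subunit of ATP synthase (r = 0.96 in the low-spike and 0.62 in the high-spike set), NHP2, of small nucleolar ribonucleoproteins (0.96 and 0.57), DDB1, of a ubiquitin ligase (0.91 and 0.76), POLR2L, an RNA polymerase subunit (0.98 and 0.26), and RUVBL1, a helicase (0.93 and 0.60). The values in the high-spike set were lower for all 5.

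For GPX4 the closest were DYNLRB1, a dynein light chain (0.96 and 0.93), and CCDC124 (0.90 and 0.96), high in both sets. SELENOP had R3HDM4 (0.90 and 0.93) and SMARCD3, of a chromatin remodelling complex (0.83 and 0.92). SELENOH had PHF23 (0.78 and 0.98) and CD63, a tetraspanin of late endosomes (0.85 and 0.95). MSRB1 had MRPS7, a mitochondrial ribosomal protein (0.97 and 0.79), and PDCD6 (0.97 and 0.77).

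GPX3 had MFSD7 (0.96 and 0.68) and DCAF11 (0.82 and 0.90), and SEPHS2 had NSA2 (0.66 and 0.91) and GEMIN5 (0.81 and 0.83). TXNRD1 had ATP2A2, the calcium pump of the endoplasmic reticulum (0.95 and 0.71), and RCN1 (0.96 and 0.65). The matches were uneven for SELENOW, with IDH3A (0.96 and 0.34) and HINT1 (0.64 and 0.88), and for SELENOM, with STAMBPL1 (0.95 and 0.67) and CRYL1 (0.27 and 0.97).

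Within a stress group and array set, the residual SD of the 10 brightest probe sets ran from 0.12 for SEPHS2 and 0.13 for TXNRD1 to 0.30 for SELENOP, against a median of 0.27 over all probe sets tested. SELENOP was thus the most variable of the 10, and the only one above that median.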

How the data were processed

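Values were the deposited MAS5 signal intensity per probe set, made by the authors with Affymetrix Expression Console 1.1.1 and MAS5 per the submitters' processing notes; a mean trimmed by 2% at both ends came to 500.1 on every array, so arrays had been scaled as a whole. Of 24123 probe sets, 124 controls were left out. Intensities were taken to log2, and probe sets with a mean under the 40th percentile were dropped, which kept 14399. Of 10069 probe sets with 1 symbol, 9961 matched the reference gene table by gene number and 0 symbols changed. Tests were two-sided moderated linear models (lmFit, eBayes) from limma 3.58.1 under R 4.3.3, adjusted by Benjamini-Hochberg over all probe sets tested. The array set was assigned at the widest gap in the mean log2 signal of 6 dap controls. The scripts were tested on simulated data. Members, lists and tests were chosen with earlier results of these data known. Replicates are separate animals, numbered in accession order, and their number limits the precision. Named are all member probe sets, all measured genes of the first 2 lists, the 3 of the partner list with the smallest p, and the most alike genes (5 for GPX1, 2 for each other member). Cell type markers were named as examples, outside this rule, and so were TXN, GCLC and GCLM. Alternatives were other filters, scalings, a pseudocount of 23.5, variance models, array weights, blocks, covariates and leaving out animals. Figures used matplotlib 3.10.9. No sequence was printed, since no sequence table was used here.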

Additional observations from a re-analysis of the deposited data

Results flagged for a closer look

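In 2 of 32 checks of a stress group's 8 values for a member probe set, 1 animal lay far from the other 7 by Dixon's ratio, where chance flags about 1 group in 20. Both were the dim SELENOH probe set, which is below the filter. Low stress replicate 2 stood at 3.76, with the next animal at 5.58, and high stress replicate 7 at 4.46, with the next at 5.84.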

How the results depend on the processing

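The high minus low stress difference kept its sign in all 16 alternatives and in all 16 fits that left out 1 animal for each of 9 genes; for GPX4 it did so in 15 of 16, the exception being the mean of its probe sets (-0.12). Part of this agreement was fixed in advance, since other filters, the variance model and the blocks leave the difference itself unchanged. For GPX1, whose groups did not overlap, neither leaving out 1 animal nor taking 1 array set alone could turn the sign. The GPX1 difference lay between 0.48 and 0.62 over the alternatives and between 0.48 and 0.60 without 1 animal each. Instead of 0 probe sets, 1 passed limma in the stress contrast with the set as a block, with the actin covariate, and with quantile normalization beside the set block (an alternative chosen after seeing the data); the cause was not tested. The interaction gave 2 calls with no filter, where the dim probe sets were tested as well, and why was not tested. Pairs with r above 0.5 in both sets numbered 3 after quantile normalization and 2 with stress group means removed, against 5. Of these 2, GPX4 with SELENOH was among the 5, but GPX3 with SELENOH was not. The latter pair had r = 0.701 in the low-spike and 0.502 in the high-spike set with the means removed, against 0.03 and 0.42 before. The number of genes called between the sets was 6 or 7 without 1 animal each. No paired analysis was possible because the replicate numbers are accession order and pair no animals; with a block for the leading digit of the animals' numbers, 0 probe sets passed. Dim probe sets near the filter limit what can be said of the second probe sets of GPX4 and SELENOH and the third of SEPHS2.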
